A study of Homo sapiens with 8 samples.

Results

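The RNAs described here are the box H/ACA small nucleolar RNAs (snoRNAs) and the small Cajal body RNAs (scaRNAs), taken as every array probe whose annotated symbol begins with SNORA or SCARNA. They make up 126 of the 47231 probes and stand for 125 genes, since SNORA73B has 2 probes. By type, 102 probes measure box H/ACA snoRNAs and 15 measure box H/ACA scaRNAs. The symbol prefix also brings in 5 scaRNAs of box C/D type (SCARNA2, SCARNA7, SCARNA9, SCARNA9L and SCARNA17) and 4 of mixed type (SCARNA5, SCARNA6, SCARNA10 and SCARNA12), so the class name does not hold for every probe.

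Box H/ACA RNAs fold into hairpins that pair with a target RNA and guide the conversion of a chosen uridine to pseudouridine by the enzyme dyskerin, in ribosomal RNA for most snoRNAs and in spliceosomal RNA for scaRNAs. In human cells most of them are not transcribed from genes of their own: they are cut from introns of a host gene and protected by the proteins dyskerin, NHP2, NOP10 and GAR1. Many hosts encode ribosomal or translation proteins, and some are long noncoding RNAs whose exons have no known protein product.

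Total RNA of A2780 and SKOV3 cells, both established human ovarian cancer lines, was measured on Illumina BeadChips after 46 °C (hyperthermia) or at 37 °C (control), with 2 samples in each of the 4 groups and 8 arrays in all. The groups were A2780 at 46 °C, A2780 at 37 °C, SKOV3 at 46 °C and SKOV3 at 37 °C. The labels give no length of exposure, no time of collection and no word on separate cultures, so p-values measure only the spread between these samples, which may be technical. The kit named in the labels primes cDNA synthesis at poly(A) tails, which mature H/ACA RNAs lack, so how much of a probe's signal comes from the mature RNA, from precursors or from other transcripts was not tested. Levels below are normalized log2 intensities, changes are differences of them (46 °C minus 37 °C) with ± SE from a limma fit to all probes (n = 2 per group), and an RNA is said to have risen or fallen where its Benjamini-Hochberg adjusted p over 47231 probes was under 0.05.

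Median signals ran from 114 to 144 per array, and the share of all probes above background from 36.9% to 41.9%, both highest on A2780 control 2. As a check of the temperature labels, the heat-shock gene HSPA1A, above background on no control array, was at least 100.5-fold higher at 46 °C in A2780 and at least 60.5-fold in SKOV3, and DNAJB1 rose by 2.90 ± 0.13 and 3.26 ± 0.13. Of the epithelial markers, KRT8, CDH1 and PAX8 were above background on none of the 8 arrays, and EPCAM on up to 7. KRT18 was above it on 4 and KRT19 on 2, all of them SKOV3 arrays. The leukocyte markers PTPRC and CD3E and the endothelial markers VWF and CDH5 were above background on none, and PECAM1 on 1. Among fibroblast markers, COL1A1 was above background on 7 arrays and rose in A2780 by 0.84 ± 0.14. There 1 of 2 COL1A2 probes fell by 0.84 ± 0.17, and DCN did not pass the test at 46 °C. The brightest DCN probe was at 12.21 in A2780 and 6.33 in SKOV3 at 37 °C, and that of COL1A2 at 8.39 and 5.94. Both were above background on the 4 A2780 arrays and on no SKOV3 array. The part of these markers in the snoRNA results was not tested. In bulk RNA, fewer cells that hold an RNA and less of it per cell cannot be told apart.

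An array's background level was set from the spread of its own dim probes, and lay at 6.37 to 6.49 on the normalized log2 scale. In A2780, 62 of 126 probes were above it on both arrays at 46 °C and 66 at 37 °C. In SKOV3, 56 were above it at 46 °C and 47 at 37 °C. Over all 47231 probes the counts at 46 °C and 37 °C were 16343 and 17673 in A2780, and 16287 and 16441 in SKOV3. On all 8 arrays 42 probes (33.3%) were above background, against 30.7% of all probes, and on no array 30 (23.8%), against 49.3% of all probes. By type, 2 to 6 of the 15 box H/ACA scaRNA probes were above background in a group, and 44 to 57 of the 102 snoRNA probes. SCARNA10 and SCARNA13 were the 2 scaRNAs above background on all 8 arrays, and SCARNA1, SCARNA5, SCARNA6, SCARNA15, SCARNA17 and SCARNA21 were above it on none.

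**Figure D1:**
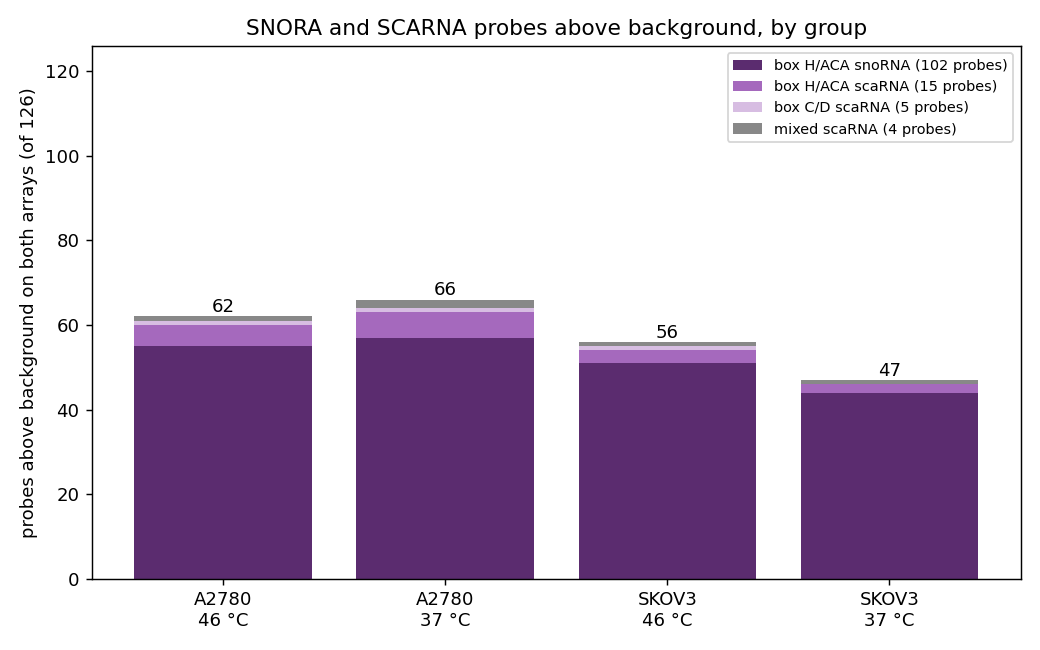
Number of SNORA and SCARNA probes above background on both arrays of a group (vertical axis, of 126) in the 4 groups, split by RNA type. The totals are 62 and 66 in A2780 at 46 °C and 37 °C, and 56 and 47 in SKOV3 at 46 °C and 37 °C, and box H/ACA snoRNAs make up most of each bar.

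Some probes crossed the background level with temperature, and how many of all probes of the array did so was not counted. In SKOV3, 13 were above it on both arrays at 46 °C but not at 37 °C, among them SNORA20, SNORA29, SNORA31, SCARNA3 and SCARNA9, and 4 at 37 °C but not at 46 °C (SNORA13, SNORA26, SNORA27 and SCARNA16). In A2780, SNORA20, SNORA2B and SCARNA27 were above it on both arrays at 46 °C but not at 37 °C, and 7 probes the other way round. Of these probes, SNORA20, SNORA2B and SNORA26 passed the test of change in at least 1 line, and the others did not.

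The first comparison asked how 46 °C changed these RNAs in each line. In A2780, 9 of 126 probes rose and 6 fell, 11.9% in all, against 2.26% of all 47231 probes. In SKOV3, 4 rose and 5 fell, 7.14% in all, against 1.48% of all probes. Rises alone were called for 1.17% of all probes in A2780 and 0.743% in SKOV3, and falls alone for 1.09% and 0.733%. Every called probe was a box H/ACA snoRNA, and they fall into a rising set led by SNORA63, SNORA20 and SNORA67 and a falling set led by SNORA12, SNORA24 and SNORA61. The median change of the class was 0.025 in A2780 and 0.032 in SKOV3, against -0.0023 and -0.0046 over all probes. The lowest and highest changes were -1.82 and 1.49 in A2780, and -1.07 and 1.00 in SKOV3.

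Across the lines, 16 probes were called in at least 1, and 8 in both: SNORA63, SNORA20, SNORA67 and SNORA4 rose in both, and SNORA24, SNORA61, SNORA33 and SNORA3B fell in both. None of the 16 had opposite signs in the lines, and 81 of all 126 probes had the same sign. Agreement between the lines was not counted over all probes, so it is not shown to be particular to the class. The 30 probes above background on no array changed by -0.19 to 0.31 in A2780 and by -0.26 to 0.28 in SKOV3, with none called. Of the 42 probes above background on every array, 11 were called in A2780 (26.2%) and 8 in SKOV3 (19%), against 5.65% and 3.73% of the 14517 probes of the array above background on all 8.

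**Figure D2:**
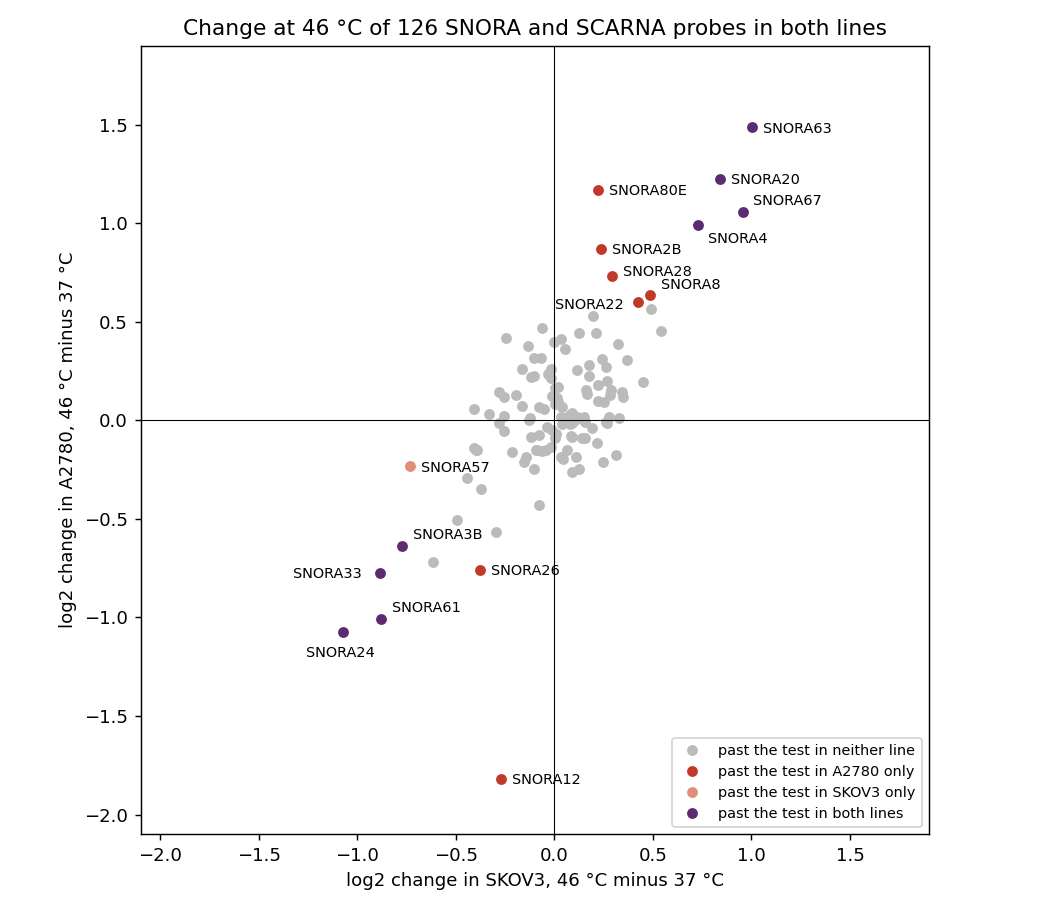
Log2 change at 46 °C against 37 °C of each of the 126 probes in A2780 (vertical axis) and SKOV3 (horizontal axis), coloured by the lines in which the probe passed the test. The 8 probes past the test in both lines lie in the upper right (SNORA63, SNORA20, SNORA67, SNORA4) and lower left (SNORA24, SNORA61, SNORA33, SNORA3B), and SNORA12 and SNORA80E lie near 0 in SKOV3.

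SNORA63 rose most. Its level was 8.67 and 8.86 in A2780 at 46 °C, against 7.32 and 7.24 at 37 °C, a change of 1.49 ± 0.13 or 2.80-fold (adjusted p = 5.96e-07). In SKOV3 it was 8.33 and 8.38 at 46 °C, against 7.45 and 7.24 at 37 °C (1.00 ± 0.13, 2.01-fold, adjusted p = 0.000133). In each line both heated samples lay above both controls. For RNAs picked by a test on these same arrays, here and below, such a gap is no further support. SNORA63, also known as E3, lies in an intron of EIF4A2, which encodes an RNA helicase of translation initiation.

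SNORA4 lies in the same gene. It was at 7.52 and 7.49 in A2780 at 46 °C, against 6.53 and 6.49 at 37 °C (0.99 ± 0.12, adjusted p = 6.12e-05), and at 7.50 and 7.51 in SKOV3 at 46 °C, against 6.73 and 6.83 at 37 °C (0.73 ± 0.12, adjusted p = 0.00224). Again no heated sample overlapped a control. The third snoRNA of that gene on the array, SNORA81, was above background on no array, with changes of 0.07 in A2780 and 0.04 in SKOV3.

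SNORA67, held by the related helicase gene EIF4A1, was the brightest of the rising set. It was at 10.49 and 10.47 in A2780 at 46 °C, against 9.33 and 9.52 at 37 °C (1.06 ± 0.13, 2.08-fold, adjusted p = 6.38e-05). The SKOV3 levels were 10.24 and 10.03 at 46 °C, against 9.12 and 9.24 at 37 °C (0.96 ± 0.13, 1.94-fold, adjusted p = 0.000254). The heated samples were higher in both lines, without overlap.

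SNORA20, held by TCP1, a subunit gene of the cytosolic chaperonin, was near background in the controls. It was at 7.55 and 7.65 in A2780 at 46 °C, against 6.37 and 6.38 at 37 °C (1.23 ± 0.13, adjusted p = 1.1e-05), and at 7.13 and 7.39 in SKOV3 at 46 °C, against 6.50 and 6.33 at 37 °C (0.84 ± 0.13, adjusted p = 0.00113). Only 1 of 2 control arrays was above background in each line, while all 4 heated arrays were.

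Of the RNAs that fell in both lines, SNORA24 changed by about the same amount in each. It was at 7.64 and 7.74 in A2780 at 46 °C, against 8.55 and 8.97 at 37 °C (-1.07 ± 0.14, adjusted p = 0.000151). SKOV3 cells had 6.97 and 6.84 at 46 °C, against 7.94 and 8.01 at 37 °C (-1.07 ± 0.14, adjusted p = 0.000179). The heated samples were lower in both lines, without overlap. SNORA24 lies in SNHG8, a long noncoding snoRNA host gene.

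SNORA61, from the noncoding host SNHG12, had the highest mean level of all 126 probes. It was at 10.37 on both A2780 arrays at 46 °C, against 11.34 and 11.42 at 37 °C (-1.01 ± 0.15, adjusted p = 0.000427). The SKOV3 samples had 9.51 and 9.96 at 46 °C, against 10.73 and 10.51 at 37 °C (-0.88 ± 0.15, adjusted p = 0.0021). The 2 heated SKOV3 samples differed from each other more than those of A2780 did, yet neither reached a control.

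A further 2 snoRNAs, both in ribosomal protein genes, fell in both lines. SNORA33, in RPS12, was at 7.67 and 7.50 in A2780 at 46 °C, against 8.37 and 8.35 at 37 °C (-0.77 ± 0.13, adjusted p = 0.00255), and at 7.42 and 7.53 in SKOV3 at 46 °C, against 8.51 and 8.22 at 37 °C (-0.89 ± 0.13, adjusted p = 0.000771). SNORA3B, in RPL27A, was at 7.42 and 7.32 in A2780 at 46 °C, against 8.15 and 7.86 at 37 °C (-0.64 ± 0.13, adjusted p = 0.0135), and at 7.22 and 7.06 in SKOV3 at 46 °C, against 7.95 and 7.87 at 37 °C (-0.77 ± 0.13, adjusted p = 0.00326). Neither RNA's groups overlapped in either line. The other snoRNA of RPL27A, SNORA3A, changed by 0.09 in A2780 and 0.25 in SKOV3, and as a close copy of SNORA3B it may share probe signal with it.

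**Figure D3:**
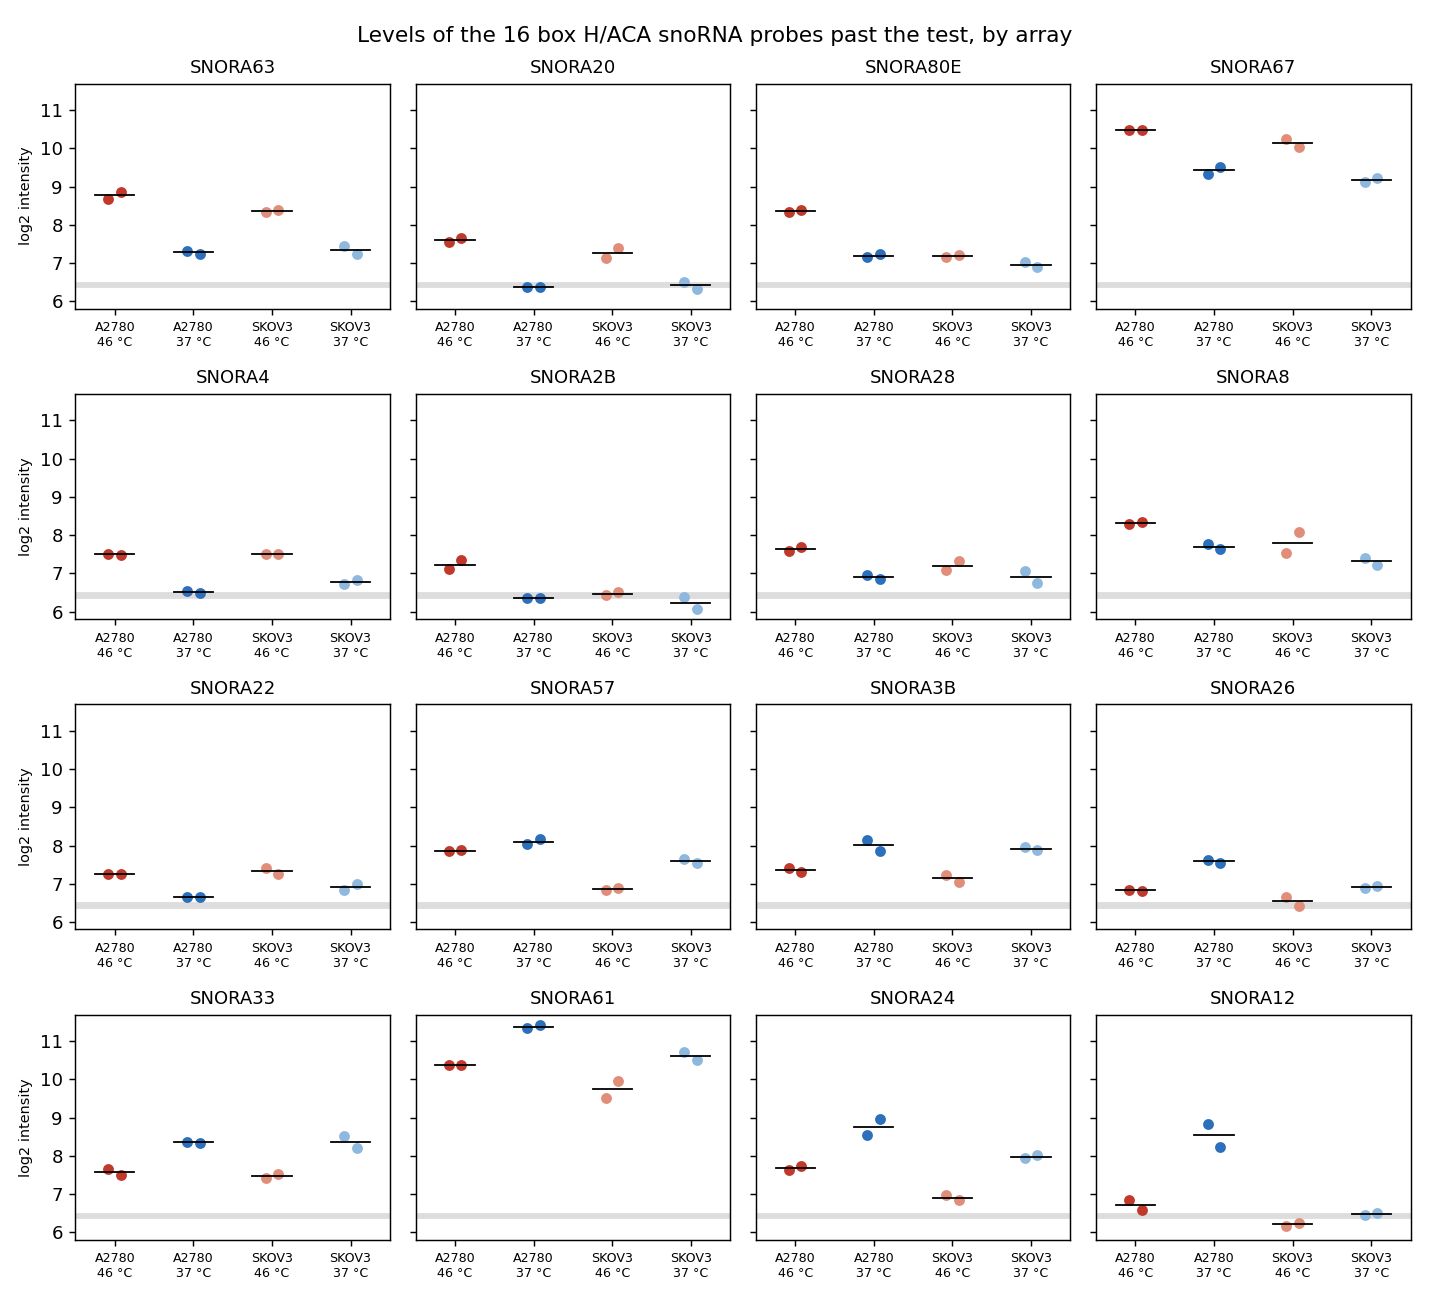
Normalized log2 intensity (vertical axis) of the 16 box H/ACA snoRNA probes past the test in A2780 or SKOV3, in each of the 4 groups. Points are arrays, black bars are means of 2 arrays and the grey band is the range of the arrays' background levels, 6.37 to 6.49. SNORA12 is far above the band in A2780 at 37 °C and close to it in SKOV3.

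SNORA12 had the largest change of the class. It fell to 6.85 and 6.59 in A2780 at 46 °C, against 8.84 and 8.24 at 37 °C (-1.82 ± 0.16, a level 0.283 times that at 37 °C, adjusted p = 8.71e-07). In SKOV3 it was at 6.17 and 6.26 at 46 °C, above background on neither array, against 6.47 and 6.50 at 37 °C, above it on 1 (-0.27 ± 0.16, adjusted p = 0.645). All A2780 samples lay above those of SKOV3. The difference between the responses, SKOV3 minus A2780, was 1.55 ± 0.23 and passed the test (adjusted p = 0.00944), as it did for 0.0974% of all probes (0.0254% higher and 0.072% lower). In SKOV3 the level was at or near background in both groups, so a fall like that of A2780 could not have been measured there, and this difference does not show that the response differed. SNORA12 lies in CWF19L1, a gene for a homologue of a yeast splicing factor.

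SNORA80E was the other snoRNA for which the difference between the lines passed the test. It was at 8.33 and 8.40 in A2780 at 46 °C, against 7.15 and 7.24 at 37 °C (1.17 ± 0.12, 2.25-fold, adjusted p = 8.71e-06). In SKOV3 it was at 7.16 and 7.21 at 46 °C, against 7.03 and 6.90 at 37 °C (0.22 ± 0.12, adjusted p = 0.598). The control levels of the lines were close, so the heated A2780 samples alone stood apart. The difference of the responses was -0.95 ± 0.18 (adjusted p = 0.0422), and it missed the threshold in 14 of 19 alternative settings, with adjusted p from 0.0168 to 0.415, among them the omission of any single array except A2780 control 1 (0.0947 to 0.398). SNORA80E lies in KHDC4, which encodes an RNA-binding protein linked to splicing. The difference for SNORA12 missed it in 6 of 19, without either A2780 heated sample (adjusted p = 0.0547 and 0.134), without SKOV3 control 1 or 2 (0.164 and 0.153), with a floor in place of background correction (0.116) and on the authors' log2 values (0.117), and its adjusted p ranged from 6.51e-05 to 0.164.

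Another 5 snoRNAs passed the test in A2780 and missed it in SKOV3, and 1 the reverse. For none of these 6 did the difference between the lines pass (adjusted p from 0.467 to 0.927), so a difference between the lines is not shown. SNORA2B, in KANSL2 of a histone acetyltransferase complex, was at 7.11 and 7.36 in A2780 at 46 °C, against 6.35 and 6.37 at 37 °C, where it was above background on neither array, and so was at least 1.78-fold higher (0.87 ± 0.14, adjusted p = 0.00108). In SKOV3 it was at 6.43 and 6.51 at 46 °C, against 6.38 and 6.08 at 37 °C (0.24 ± 0.14, adjusted p = 0.621). Its A2780 samples did not overlap, and 3 of its 4 SKOV3 arrays were at background.

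SNORA28, in the translation initiation factor gene EIF5, was at 7.59 and 7.70 in A2780 at 46 °C, against 6.96 and 6.86 at 37 °C (0.73 ± 0.14, adjusted p = 0.00518), and at 7.09 and 7.32 in SKOV3 at 46 °C, against 7.06 and 6.76 at 37 °C (0.29 ± 0.14, adjusted p = 0.487). SNORA26, in the noncoding host DANCR, was at 6.85 and 6.81 in A2780 at 46 °C, against 7.64 and 7.54 at 37 °C (-0.76 ± 0.13, adjusted p = 0.00198), and at 6.66 and 6.43 in SKOV3 at 46 °C, against 6.90 and 6.94 at 37 °C (-0.38 ± 0.13, adjusted p = 0.231). In both RNAs the heated and control samples were apart in each line, by a smaller gap in SKOV3.

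SNORA8, from TAF1D, a gene for a subunit of an RNA polymerase I factor, rose in A2780 by 0.64 ± 0.16 (adjusted p = 0.0378), with 0.49 ± 0.16 in SKOV3 (adjusted p = 0.189). SNORA22, in the chaperonin pseudogene CCT6P1, rose in A2780 by 0.60 ± 0.13 (adjusted p = 0.0126), with 0.42 ± 0.13 in SKOV3 (adjusted p = 0.136). SNORA57, in CSKMT, a methyltransferase gene, was the RNA called in SKOV3 alone. It was at 6.84 and 6.88 in SKOV3 at 46 °C, against 7.64 and 7.54 at 37 °C (-0.73 ± 0.12, adjusted p = 0.00241), and at 7.86 and 7.88 in A2780 at 46 °C, against 8.04 and 8.17 at 37 °C (-0.23 ± 0.12, adjusted p = 0.49). Its heated samples were below the controls in both lines.

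The scaling between arrays weighed on the A2780 calls. Median scaling gave 7 rises and 20 falls among the 126 probes, and no scaling 5 and 21, while the median over all 47231 probes moved to -0.056 and -0.161 and 13.4% and 14.7% of them were called. SNORA28, SNORA8 and SNORA22 lost their rise under both (adjusted p = 0.132 and 0.346, 0.791 and 0.986, 0.135 and 0.389), and SNORA67 without scaling (0.141). SNORA57 fell in A2780 as well in 2 of 20 alternatives, among them median scaling (adjusted p = 0.00753). The 9 snoRNAs SNORA12, SNORA63, SNORA20, SNORA80E, SNORA24, SNORA61, SNORA4, SNORA2B and SNORA26 passed in A2780 in all 20 alternatives other than the 2-fold minimum, which left 7 calls. Single samples decided some of the rest: SNORA33 missed the threshold without A2780 hyperthermia 2 (adjusted p = 0.0696), SNORA3B without A2780 control 1, hyperthermia 1 or hyperthermia 2 (0.0948, 0.085 and 0.163), and SNORA28 without control 2 or hyperthermia 2 (0.0621 and 0.0931). SNORA22 missed it without A2780 control 2, hyperthermia 1 or hyperthermia 2 (0.096, 0.112 and 0.111), and SNORA8 in 13 alternatives, among them each of these 3 omissions (0.271, 0.218 and 0.246) and that of either SKOV3 control (0.0697 for both). Over the 20 alternatives adjusted p ranged from 0.000283 to 0.0696 for SNORA33, 0.000151 to 0.163 for SNORA3B, 0.000743 to 0.346 for SNORA28, 0.00538 to 0.389 for SNORA22 and 0.00473 to 0.986 for SNORA8.

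In SKOV3, SNORA63 passed in the same 20 alternatives, and the 2-fold minimum left 2 calls. SNORA24, SNORA33 and SNORA67 each missed the threshold in 1 of the 20, with highest adjusted p of 0.109, 0.094 and 0.0761. Without scaling there were 2 calls, 1 rise and 1 fall, both among the 9. Without SKOV3 control 1 there were 5 calls, with SNORA61 (adjusted p = 0.093), SNORA4 (0.0656), SNORA3B (0.0837) and SNORA57 (0.0693) lost. SNORA20 was lost without SKOV3 control 2 (0.0551) and SNORA3B also without SKOV3 hyperthermia 2 (0.0605). Over the alternatives adjusted p ranged from 8.88e-05 to 0.133 for SNORA61, 0.000959 to 0.0831 for SNORA4, 0.000608 to 0.0837 for SNORA3B, 0.000893 to 0.288 for SNORA57 and 0.000139 to 0.0575 for SNORA20.

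None of the 24 scaRNA probes passed the test in either line. At an unadjusted p under 0.05, 3 of 15 box H/ACA, 1 of 5 box C/D and 3 of 4 mixed scaRNA probes were counted in A2780. In SKOV3 there were 1, 2 and 0, and the shares of all probes were 12.3% in A2780 and 10.2% in SKOV3. The 3 mixed probes went both ways in A2780 (SCARNA10 0.31, SCARNA6 0.31 and SCARNA12 -0.43), and SCARNA6 was above background on no array. The changes of the box H/ACA scaRNAs lay between -0.21 and 0.45 in A2780, and between -0.25 and 0.54 in SKOV3. SCARNA3 came closest: it was at 7.38 and 7.09 in A2780 at 46 °C, against 6.80 and 6.75 at 37 °C (0.45 ± 0.13, adjusted p = 0.0986), and at 7.001 and 6.803 in SKOV3 at 46 °C, against 6.37 and 6.36 at 37 °C, above background on neither array (at least 1.35-fold higher, fitted change 0.54 ± 0.13, adjusted p = 0.0535). Its heated samples were above its controls in both lines. SCARNA10, the brightest scaRNA, was at 8.55 and 8.68 in A2780 at 46 °C, against 8.36 and 8.26 at 37 °C (0.31 ± 0.14, adjusted p = 0.351), and changed by 0.24 ± 0.14 in SKOV3 (adjusted p = 0.608).

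Several of the brightest snoRNAs also missed the threshold. SNORA70, in the ribosomal protein gene RPL10, changed by -0.56 ± 0.16 in A2780 (adjusted p = 0.0776) and by -0.29 ± 0.16 in SKOV3 (adjusted p = 0.575). SNORA10, in RPS2, changed by -0.51 ± 0.14 (adjusted p = 0.0752) and by -0.49 ± 0.14 (adjusted p = 0.116). Both passed in A2780 under median scaling and without scaling. With single arrays left out, the A2780 change ranged from -0.75 to -0.38 for SNORA70 and from -0.70 to -0.31 for SNORA10. SNORA18, SNORA50C and SNORA59A changed by 0.28, 0.38 and 0.40 in A2780 and by 0.17, -0.13 and -0.003 in SKOV3, and like SCARNA10 they turned negative in A2780 under median scaling or without scaling. SNORA73A and the 2 probes of SNORA73B, near-identical RNAs also known as U17 that act in ribosomal RNA processing, changed by -0.29, -0.15 and -0.35 in A2780 and by -0.44, -0.39 and -0.37 in SKOV3, none past the test.

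Because these RNAs are cut from introns, each was set beside the gene around it, taken as the smallest gene span of a RefSeq table that holds it. The table gives no strand, so strand was not compared. Such a gene was found for 124 of 126 probes, 96 genes in all, of which 17 are long noncoding RNAs and 87 had a probe of their own, so that 114 snoRNA and scaRNA probes could be set beside a host. The changes of the 2 were weakly related across these 114, with Pearson r of 0.16 in A2780 and 0.154 in SKOV3, as a description over probes that share the same arrays and in part the same hosts. Dim probes were kept in it: 30 of all 126 members, and host probes such as those of SNHG3 and RPL10, were above background on no array. The relation among brighter probes alone was not computed.

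Of all probes, 2.26% passed the test in A2780 and 1.48% in SKOV3. By its brightest probe, no host of the 16 called snoRNAs passed in A2780, and 1 did in SKOV3. That host was SNHG12, at 7.21 and 7.07 in SKOV3 at 46 °C, against 7.82 and 8.56 at 37 °C (-1.05 ± 0.19, adjusted p = 0.0046), and at 7.62 and 7.95 in A2780 at 46 °C, against 8.42 and 8.08 at 37 °C (-0.47 ± 0.19, adjusted p = 0.293). SNORA61 is its snoRNA that fell, while SNORA16A of the same gene changed by 0.32 in A2780 and -0.07 in SKOV3. EIF4A2, with SNORA63 and SNORA4, was at 12.53 and 12.70 in A2780 at 46 °C, against 12.29 and 12.18 at 37 °C (0.38 ± 0.14, adjusted p = 0.232), and changed by 0.44 ± 0.14 in SKOV3 (adjusted p = 0.2). EIF4A1, with SNORA67, changed by 0.03 and -0.13 in the lines, and CWF19L1, with SNORA12, by -0.0035 and -0.26. SNHG8, with SNORA24, changed by -0.07 and 0.07, and RPS12, with SNORA33, by -0.05 and 0.11. CSKMT, with SNORA57, changed by 0.29 and 0.03, but its probe was above background on only 2 arrays. The brightest TCP1 probe, beside SNORA20, changed by 0.21 and -0.07, but a dimmer TCP1 probe rose by 0.91 in A2780 (adjusted p = 0.000403) and by 0.88 in SKOV3 (adjusted p = 0.00065), so the 2 probes of that gene do not give 1 answer.

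**Figure D4:**
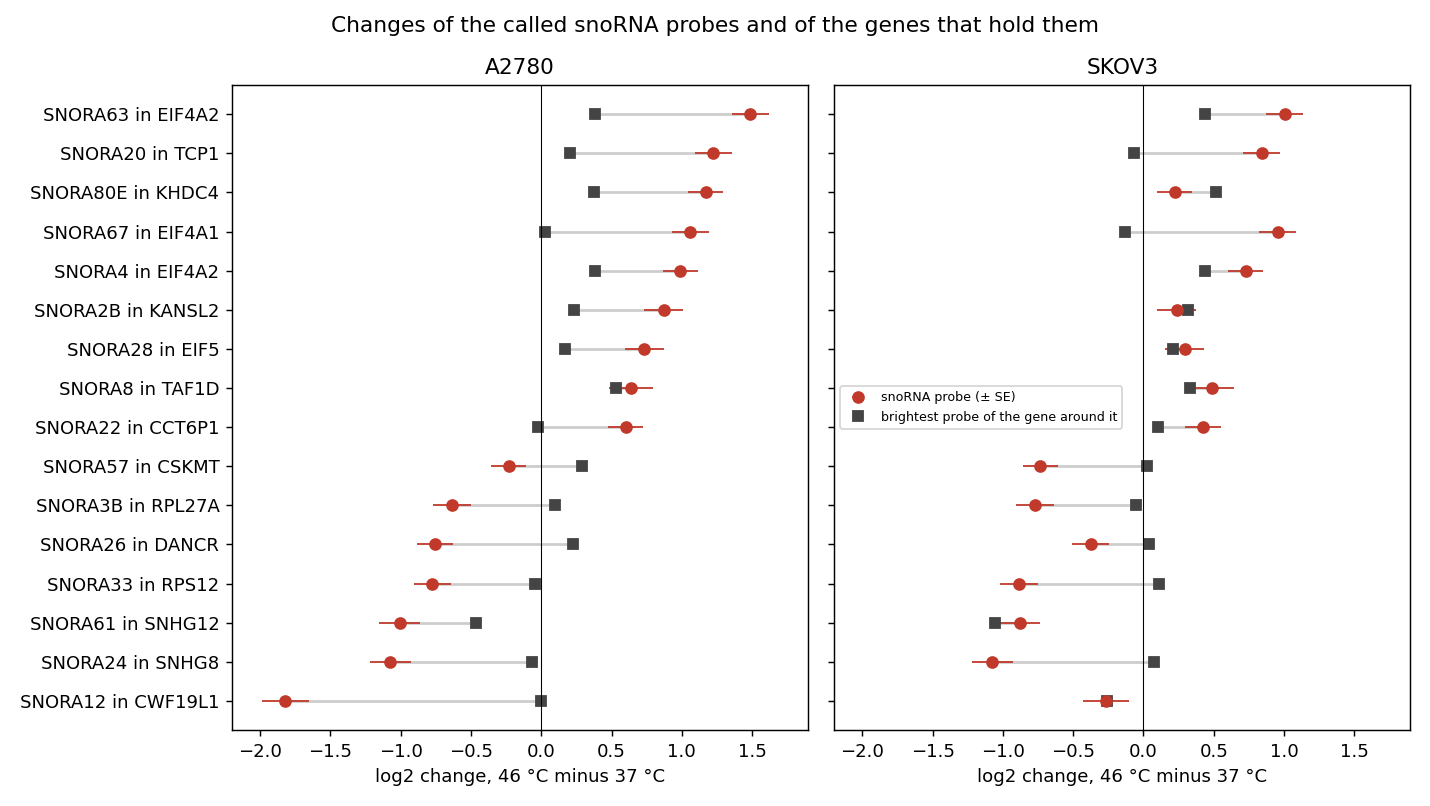
Log2 change at 46 °C against 37 °C (horizontal axes) of the 16 called snoRNA probes (circles, with SE) and of the brightest probe of the gene that holds each (squares), in A2780 on the left and SKOV3 on the right. Most squares lie nearer 0 than their circles, and SNHG12 in SKOV3 lies as low as SNORA61.

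By the brightest probe of each of the 87 hosts, 3 passed the test in A2780 (3.45%) and 2 in SKOV3 (2.3%), against 2.26% and 1.48% of all probes. They were TMEM167A, which rose in A2780 (0.61), SLC25A3, which fell there (-0.59), NOP56, which fell in A2780 (-0.64) and SKOV3 (-0.70), and SNHG12. Their snoRNAs or scaRNAs other than SNORA61 were not called: SCARNA18 in TMEM167A changed by 0.01 and 0.06, SNORA53 in SLC25A3 by 0.22 and -0.02, and SNORA51 in NOP56, a core protein gene of box C/D particles, by 0.47 and -0.06. TAF1D held 6 of the snoRNAs, and its brightest probe changed by 0.53 in A2780 (adjusted p = 0.0572) and 0.33 in SKOV3 (adjusted p = 0.399). Of the 6, SNORA8 rose in A2780, while SNORA25 changed by -0.72 (adjusted p = 0.0524) and SNORA32 by -0.15 there. SNORA18, SNORA40 and SNORA1 changed by 0.28, 0.23 and 0.39 in A2780.

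The start regions of the hosts are shown because they are where a heat-shock element or the pyrimidine-rich start of translation genes would lie. RefSeq sequences on GRCh38.p14 were at hand for 14 of the 15 hosts of called snoRNAs. The core of a heat-shock element, GAANNTTC on either strand, was found in the 300 bases around the start of EIF4A2, EIF5 and TCP1, all of which hold snoRNAs that rose, and 6.77% of all promoters hold it. EIF4A1, KHDC4, KANSL2 and TAF1D, which also hold snoRNAs that rose, had no match. A longer element, in which any 2 bases and GAA follow that core, was in none of the 14 and in 0.49% of all promoters. The 80 bases before and 20 after the start of EIF4A2 and EIF5 are given with the match in capitals, while that of TCP1 lies outside this stretch.
EIF4A2, plus strand, chr3:186783497-186783596: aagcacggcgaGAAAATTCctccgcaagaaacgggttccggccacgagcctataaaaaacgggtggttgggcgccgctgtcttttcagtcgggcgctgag
EIF5, plus strand, chr14:103334157-103334256: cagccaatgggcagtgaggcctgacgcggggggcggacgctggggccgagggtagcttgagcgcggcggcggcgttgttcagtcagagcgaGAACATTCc

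CTTTC on the sense strand within 20 bases of the start, a simple stand-in for the pyrimidine-rich start, was found in 4 of the 14, against 5.64% of all promoters. These 4 were SNHG8, SNHG12, RPS12 and CSKMT, whose snoRNAs SNORA24, SNORA61, SNORA33 and SNORA57 fell in at least 1 line. RPL27A, DANCR and CWF19L1, which hold the falling SNORA3B, SNORA26 and SNORA12, had no such match. The match is in capitals.
SNHG8, plus strand, chr4:118278682-118278781: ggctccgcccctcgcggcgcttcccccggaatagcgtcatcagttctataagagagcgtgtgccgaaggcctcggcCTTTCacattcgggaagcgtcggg
SNHG12, minus strand, chr1:28581854-28581953: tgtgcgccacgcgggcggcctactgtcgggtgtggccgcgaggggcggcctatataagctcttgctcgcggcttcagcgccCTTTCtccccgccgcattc
RPS12, plus strand, chr6:132814489-132814588: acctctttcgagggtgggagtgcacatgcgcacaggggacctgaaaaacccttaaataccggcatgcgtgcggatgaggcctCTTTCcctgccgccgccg
CSKMT, plus strand, chr11:62665232-62665331: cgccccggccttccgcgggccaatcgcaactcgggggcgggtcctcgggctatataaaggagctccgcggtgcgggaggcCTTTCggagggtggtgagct

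CWF19L1, whose SNORA12 fell most, held neither motif in this stretch. These matches describe the letters of the sequences and were not tested against the responses.
CWF19L1, minus strand, chr10:100267619-100267718: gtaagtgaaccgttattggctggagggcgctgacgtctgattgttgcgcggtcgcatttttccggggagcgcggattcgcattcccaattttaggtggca

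The genes of the H/ACA particle and of its assembly, trimming and traffic were looked at as a list of 19, all of which had a probe. The list also held FBL, the methyltransferase gene of box C/D particles, which changed by -0.10 in A2780 and -0.14 in SKOV3. None of the 19 passed the test at 46 °C in either line by its brightest probe, and the median change was -0.07 in both lines. At an unadjusted p under 0.05 there were 8 of 19 in A2780 and 0 in SKOV3 (12.3% and 10.2% of all probes). Those 8 went both ways: NHP2, RUVBL1, RUVBL2, PIH1D1 and PARN were lower at 46 °C, and RPAP3, TENT4B and TERC higher. DKC1, which encodes dyskerin, changed by 0.19 ± 0.15 in A2780 and 0.03 ± 0.15 in SKOV3, and NOP10 by -0.01 and -0.04. NHP2 changed by -0.41 ± 0.15 in A2780 (adjusted p = 0.21) and -0.04 in SKOV3, and its other 3 probes by -0.43, -0.48 and -0.41 in A2780. GAR1 changed by 0.13 in A2780 and -0.06 in SKOV3, whereas its other 3 probes gave -0.08, -0.43 and -0.42 in A2780. Without A2780 control 1, the 4 NHP2 probes changed by -0.63 to -0.89 in A2780, and 1 dimmer GAR1 probe by -0.85. At the other end of the single-array omissions, the changes were -0.19 to -0.02 for NHP2 and -0.0062 for that GAR1 probe. The A2780 controls of 1 NHP2 probe lay at 11.75 and 12.56, against 11.68 on both arrays at 46 °C. A2780 control 2 was the higher control for all 4 NHP2 probes and for that GAR1 probe. These negative changes, none past the test, thus rest largely on that array. TERC, the telomerase RNA, which carries an H/ACA domain of its own, was above background on no array.

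A second comparison set SKOV3 against A2780 at 37 °C. None of the 126 probes was higher in SKOV3 and 16 were lower, 12.7% against 13% of all probes (6.33% higher and 6.68% lower), so the share called was close to that of all probes. SNORA12 differed most: it was at 6.47 and 6.50 in SKOV3 against 8.84 and 8.24 in A2780 (-2.06 ± 0.16, adjusted p = 2.44e-08). SNORA24 (-0.78), SNORA61 (-0.76), SNORA26 (-0.67), SNORA21 (-0.63) and SNORA70 (-0.61) followed, and the scaRNAs SCARNA13 (-0.53) and SCARNA3 (-0.42) were among the 16. SNORA12, SNORA24, SNORA61, SNORA26 and SNORA57 were also called in a response to 46 °C, all of them falls. The 2 sets share the control arrays. Without A2780 control 2, SKOV3 control 1 or SKOV3 control 2 the count was 7, 7 and 5, and median scaling gave 35, so the number rests on single samples and on the scaling.

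Box C/D snoRNAs, the sister class that guides ribose methylation, were counted on the same arrays. Of 178 SNORD probes, 21 rose and 5 fell in A2780 (14.6% called), and 19 rose and 4 fell in SKOV3 (12.9%). The corresponding H/ACA and scaRNA counts were 9 and 6 in A2780 and 4 and 5 in SKOV3. The median SNORD change was 0.07 in A2780 and 0.05 in SKOV3. No SNORD probe passed the limma test of the difference between the lines, with 9 of 178 at an unadjusted p under 0.05, against 2 past the test and 17 at that unadjusted level among the 126, where 7.39% of all probes were at that level. Whether the 2 classes differ was not tested.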

How the data were processed

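RNA of the 8 samples was biotin-labelled for Illumina BeadChips. The deposited signal table holds linear probe intensities exported by the authors with BeadStudio, per the submitters' processing notes, neither normalized between arrays nor background-subtracted. The authors' table of log2 values keeps the rank order of the signals and lies within 0.0246 of a quantile normalization of them. Here intensities were corrected with normexp (offset 50), put on the log2 scale and then quantile-normalized. Probe symbols came from the platform annotation (30113 probes with 1 symbol, 8 with several, 17110 not listed).

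A 4-group model was fitted to all 47231 probes, with no filter, in limma 3.58.1 (R 4.3.3; 4 residual and 14.0 prior degrees of freedom), with two-sided tests and Benjamini-Hochberg adjustment over all probes. Background was the 99th percentile of a normal around each array's mode of log2 signals. With 2 arrays a group, the number of arrays limits precision. Replicate numbers were not taken as pairs: deviations of equally numbered samples from group means correlated at 0.0656 in A2780 and -0.127 in SKOV3, and between the lines at 0.142 at 46 °C and 0.101 at 37 °C. The model fit alone was tried on simulated log2 values drawn with its own variances. That trial does not cover the background correction or the scaling between arrays.

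Members and gene lists were chosen with earlier results of these data known. Every member past the test in a response or in the difference was named, the 14 with the largest change got values in every sample, and the 8 brightest members and second probes of named genes were named whatever their test; SCARNA3, the same-host RNAs and those crossing background were named after their values were seen. The alternatives were other scalings, a floor of 16, the authors' log2 values, filters, another prior, array weights, fewer arrays, 1 probe per gene, a replicate block, a 2-fold minimum and leaving out each array. Hosts came from RefSeq gene spans (GRCh38.p14); the build behind the array annotation is not given in the sources used here, and the RNAs' coordinates are left out. Their own sequences were not used here.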

Additional observations from a re-analysis of the deposited data

Results flagged for a closer look

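The difference between the lines' responses to 46 °C passed the test for SNORA80E and SNORA12. For SNORA80E the SKOV3 response minus the A2780 response was -0.95 (SE 0.18, limma adjusted p = 0.0422), with changes of 0.22 in SKOV3 and 1.17 in A2780, and it missed the threshold in 14 of 19 alternatives (adjusted p up to 0.415). For SNORA12 it was 1.55 (SE 0.23, limma adjusted p = 0.00944), with changes of -0.27 in SKOV3 and -1.82 in A2780, but its SKOV3 level lay at or near background, where a fall of that size could not have been measured, and it missed the threshold in 6 of 19 alternatives (adjusted p up to 0.164). The host genes of both, KHDC4 (0.51 in SKOV3 and 0.38 in A2780) and CWF19L1 (-0.26 and -0.0035), did not pass the test in either line.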

How the results depend on the processing

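The count of called members was 15 in A2780, 9 in SKOV3, 2 for the difference and 16 between the lines at 37 °C. Median scaling gave 27 in A2780, 1 for the difference and 35 between the lines, and no scaling gave 26, 2 (SKOV3), 1 and 38. With a 2-fold minimum the counts were 7, 2, 1 and 1. The difference also fell to 1 with a floor, the authors' values, either filter, 1 probe per gene, the trended prior and the replicate block. The replicate block gave 14, 9, 1 and 13, and the correlations of equally numbered samples (-0.127 to 0.142) do not settle a pairing. Crossing the numbers of the SKOV3 hyperthermia samples in the block, chosen after seeing the data, gave 21, 11, 2 and 17. Leaving out single arrays gave 10 to 17, 5 to 10, 0 to 2 and 5 to 17 calls, with no difference called without either A2780 hyperthermia sample or either SKOV3 control. The median member change in A2780 was -0.056 under median scaling and -0.161 without scaling, and 0.024 to 0.060 with arrays left out, against 0.0027 to 0.036 in SKOV3. At the 95th percentile of background, 73 probes were above it in A2780 at 46 °C, 77 at 37 °C, 65 in SKOV3 at 46 °C and 57 at 37 °C. No called change turned sign. Where an array was left out, the lone sample was assumed to vary like the other groups. With 2 arrays a group and many probes near background, small changes of the dim RNAs, most scaRNAs among them, were not detectable; the cause of each dependence was not tested.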
